A study of Mus musculus with 6 samples.

Results

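The serotonin receptors are described here, a family of 10 genes (Htr1a, Htr1b, Htr1d, Htr1f, Htr2a, Htr2c, Htr3a, Htr4, Htr5a and Htr7) chosen by name from the 21006 mouse gene identifiers measured. Each of the 10 had 1 identifier. mRNA was measured by RNA sequencing in the prefrontal cortex of wild type male C57BL/6 mice, labelled 18 months old, although the sample titles carry a mark that could be read as another age. The PND group, named for postoperative neurocognitive disorder, inhaled 1.5% isoflurane, a volatile anesthetic, and underwent a 30-minute exploratory laparotomy, in which the abdomen was opened and its organs inspected. Lidocaine cream and povidone iodine were put on the wound afterwards. The CON group had neither anesthesia nor operation, so anesthesia, surgery and wound care cannot be told apart. Animals of both groups took behavioural tests and were under isoflurane when the tissue was taken. Each group had 3 animals sequenced, drawn at random from 13 in the study, and each animal gave 1 sample.

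Serotonin reaches the cortex along axons of the raphe nuclei of the brainstem, and its effect depends on which receptor a cell carries. The Htr1 and Htr5 receptors couple to inhibitory Gi/o proteins, the Htr2 receptors to Gq/11 proteins that activate phospholipase C, and Htr4 and Htr7 to Gs, which raises cyclic AMP. Htr3a encodes a subunit of an ion channel that serotonin opens directly. In the prefrontal cortex these receptors act on pyramidal neurons, interneurons and axon terminals, and several are drug targets.

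None of the 10 receptors differed between PND and CON by the test used. A gene passed the cut-off when its log2 fold change lay beyond 1 in either direction with an unadjusted p below 0.05 in limma, and 0 of the 10 receptors passed it, beside 1.33% of the 18185 genes tested (adjusted p below 0.05: 0 receptors, 0.011% of all genes). An unadjusted p below 0.05 was reached by 0 receptors, beside 3.13% of all genes tested. A second test on estimated fragment counts (voom) also gave 0 receptors by either criterion, where 1.44% of the genes tested passed the cut-off. The unadjusted p of the receptors ran from 0.27 for Htr3a to 0.918 for Htr1d, and all adjusted p-values were 0.9999. The fold changes were small, from -0.051 for Htr1d to 0.38 for Htr3a on the log2 scale, and 9 of the 10 were above 0, as were 52.4% of all genes tested. The median of the receptors was 0.15, and that of all genes tested was 0.012. That lean toward PND rested on CON replicate 2, since without this sample 4 receptors were above 0 and 6 below.

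Levels within the family covered a wide range. Values are FPKM, a fragment count divided by exon length and by library depth, so that genes can be compared. Averaged over the 6 samples they spanned an 18.4-fold range in the order Htr2a, Htr1b, Htr1f, Htr2c, Htr1a, Htr5a, Htr4, Htr3a, Htr7 and Htr1d. Mean levels were at least 1 FPKM for 7 receptors and below it for 3, where the median over all genes tested was 2.44 FPKM.

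**Figure D1:**
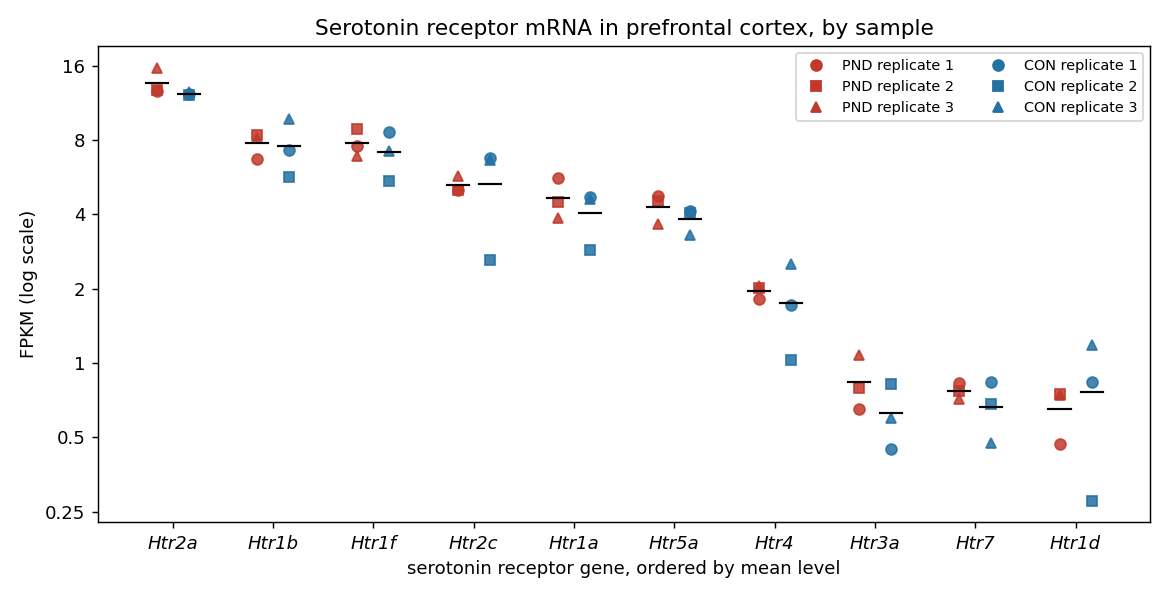
FPKM of each serotonin receptor (log axis) in the 3 PND samples (red) and the 3 CON samples (blue), with the marker shape giving the replicate and the black bar the group mean. Levels fall from 12.2 to 15.7 FPKM for Htr2a to 0.277 to 1.18 FPKM for Htr1d, and the blue square, CON replicate 2, is the lowest point for 7 of the 10 receptors.

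The sequences before the transcription start are shown for 4 receptors, namely Htr2a, the highest, and Htr1b, Htr2c and Htr1d, which are set beside striatal markers further on. Htr4 had no entry in the promoter table. Each line is the 200 bases just upstream of the first annotated start, 5′ to 3′ on the strand of the gene, from RefSeq on GRCm38.p6. Capitals mark a CCAAT box (CCAAT, or ATTGG on the other strand) or a GC box (GGGCGG, or CCGCCC on the other strand).
Htr2a, chr14:74640640-74640839, plus strand: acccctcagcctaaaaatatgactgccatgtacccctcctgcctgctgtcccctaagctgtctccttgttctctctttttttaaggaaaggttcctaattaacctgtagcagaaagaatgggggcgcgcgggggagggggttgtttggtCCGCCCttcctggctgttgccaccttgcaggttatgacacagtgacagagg
Htr1b, chr9:81633833-81634032, minus strand: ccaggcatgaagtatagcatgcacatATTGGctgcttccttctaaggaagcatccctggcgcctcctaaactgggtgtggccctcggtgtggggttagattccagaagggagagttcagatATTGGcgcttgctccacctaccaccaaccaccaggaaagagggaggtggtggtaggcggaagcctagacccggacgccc
Htr2c, chrX:146962313-146962512, plus strand: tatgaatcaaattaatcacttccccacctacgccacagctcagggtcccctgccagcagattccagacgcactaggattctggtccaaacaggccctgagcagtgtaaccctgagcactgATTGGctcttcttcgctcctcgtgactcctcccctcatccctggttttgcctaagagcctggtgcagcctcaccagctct
Htr1d, chr4:136423324-136423523, plus strand: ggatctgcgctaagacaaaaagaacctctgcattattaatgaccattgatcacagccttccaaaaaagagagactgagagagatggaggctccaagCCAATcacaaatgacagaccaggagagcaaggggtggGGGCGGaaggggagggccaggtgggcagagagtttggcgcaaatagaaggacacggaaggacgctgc
A CCAAT box was present in the windows of Htr1b (2 copies), Htr2c (1) and Htr1d (1) and not in that of Htr2a. Of the 32851 windows of the same length in the RefSeq table, 29.3% held this motif. A GC box was found once each for Htr2a and Htr1d, against 31.0% of all windows. The TATA box letters TATAAA, present in 9.96% of all windows, were in none of these 4. GC content was 53.0% for Htr2a, 57.0% for Htr1b, 55.0% for Htr2c and 52.5% for Htr1d, with a median of 53.0% over all windows. A match to these letters is a description and does not show that a factor binds there.

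The Gq/11-coupled receptors held the highest member of the family. Htr2a (GRCm38 chr14:74640840-74709494), found on pyramidal neurons and the main target of psychedelic drugs, measured 12.6, 12.7 and 15.7 FPKM in PND replicates 1 to 3 and 12.3, 12.2 and 12.5 FPKM in CON replicates 1 to 3. PND replicate 3 stood above the other 5 samples, which lay close together. It was the 1 receptor of 10 whose PND samples all lay above all CON samples, a pattern seen in 3.78% of all genes tested, and no receptor showed the reverse (3.88% of all genes tested). The difference of 0.14 (SE 0.13, 95% confidence interval -0.16 to 0.44, log2) did not exceed the spread between samples (unadjusted p = 0.304, limma). After correction for GC content the groups of Htr2a overlapped, with CON replicates 2 and 3 between the PND samples.

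Htr2c (chrX:146962513-147197277), a receptor known for its RNA editing and its role in appetite, was among the receptors that moved most with a single sample. It measured 5.02, 5.04 and 5.75 FPKM in PND and 6.77, 2.61 and 6.62 FPKM in CON. CON replicate 2 was far below all others, and the remaining CON samples were above all PND samples. The log2 difference was 0.10 with all samples (SE 0.35, 95% confidence interval -0.73 to 0.93) and -0.34 without CON replicate 2, where its unadjusted p of 0.0547 (limma) was the smallest of any receptor with 1 sample left out. Epithelial cells of the choroid plexus also make much Htr2c. Of 12 choroid plexus markers, 10 had an identifier, and their summed level was 3.32 to 3.998 FPKM in PND and 1.56 to 3.11 FPKM in CON. For Clic6 (log2 difference 0.80, unadjusted p = 0.0319, limma) and Sostdc1 (1.38, unadjusted p = 0.0119, limma) all PND samples lay above all CON samples (3.78% of all genes tested), with an adjusted p of 0.9999 (limma) for each. Sostdc1 went past the cut-off (1.33% of all genes tested), but it reached the filter on low values only through PND (mean 0.284 FPKM, against 0.0519 FPKM in CON), at no more than 5.1 estimated fragments per sample. Of the markers left out by the filter, Otx2 averaged 0.0509 FPKM in PND and 0.0959 FPKM in CON. Single markers ran from Folr1, at 0 to 0.0545 FPKM, and Ttr, at 0 to 0.207 FPKM, to Clic6, at 0.701 to 2.14 FPKM. The summed levels of the groups did not overlap, and the part of such cells in the Htr2c values was not tested.

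The Gi/o-coupled receptors made up the largest part of the family signal. Htr1b (chr9:81628291-81633828), which sits on axon terminals and lowers transmitter release, measured 6.73, 8.39 and 8.15 FPKM in PND and 7.32, 5.67 and 9.74 FPKM in CON. Both the lowest and the highest sample were CON. The log2 difference was 0.062 (SE 0.21, 95% confidence interval -0.44 to 0.56). The exons of Htr1b share 852 bases with D430036J16Rik, an antisense gene at 0.672 to 2.41 FPKM in these samples. How counting used the strand was not stated, so reads of these overlapping genes cannot be told apart, and no other receptor had such an overlap. D430036J16Rik itself had a log2 difference of 0.51 (SE 0.43, unadjusted p = 0.278, limma).

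Htr1f (chr16:64924729-65105854), a target of migraine drugs, measured 7.57, 8.87 and 6.88 FPKM in PND and 8.67, 5.48 and 7.26 FPKM in CON. Htr1a (chr13:105443639-105448122), an inhibitory receptor of pyramidal neurons and the autoreceptor on raphe cell bodies, measured 5.60, 4.50 and 3.86 FPKM in PND and 4.72, 2.87 and 4.602 FPKM in CON. CON replicate 2 was the lowest sample for both, and the other values of the groups intermingled. The log2 differences were 0.14 for Htr1f (95% confidence interval -0.32 to 0.60) and 0.21 for Htr1a (-0.36 to 0.77).

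Htr5a (chr5:27842149-27855088), a less studied inhibitory receptor, measured 4.75, 4.52 and 3.65 FPKM in PND and 4.14, 4.04 and 3.31 FPKM in CON. Here CON replicate 3 was lowest and CON replicate 2 lay in the middle, unlike the receptors above. The log2 difference was 0.16 (95% confidence interval -0.25 to 0.57). Htr1d (chr4:136423524-136444398), a relative of Htr1b and a target of triptans, was among the 3 lowest receptors, at 0.471, 0.746 and 0.740 FPKM in PND and 0.834, 0.277 and 1.18 FPKM in CON. The CON samples enclosed all PND samples. Its log2 difference of -0.051 had the widest error (SE 0.48, 95% confidence interval -1.18 to 1.07), with an estimated 7.2 to 27.3 fragments behind each value.

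The Gs-coupled receptors were lower than most of the family. Htr4 (chr18:62324204-62496577), linked to memory and abundant in the striatum, measured 1.82, 2.01 and 2.06 FPKM in PND and 1.72, 1.03 and 2.51 FPKM in CON. The PND samples were close together and lay within the CON range. The log2 difference was 0.24 (95% confidence interval -0.50 to 0.97). Htr7 (chr19:35958734-36057507), known for its part in circadian timing, measured 0.827, 0.769 and 0.713 FPKM in PND and 0.839, 0.683 and 0.473 FPKM in CON, from 11.6 to 24.9 estimated fragments. Its groups overlapped, with CON replicates at both ends, and the log2 difference was 0.21 (95% confidence interval -0.46 to 0.88).

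The channel subunit Htr3a (chr9:48899213-48911099), made by a class of cortical interneurons, measured 0.652, 0.790 and 1.07 FPKM in PND and 0.449, 0.825 and 0.601 FPKM in CON. Its log2 difference was 0.38, above that of the other receptors with all samples but not without CON replicate 1, CON replicate 3 or PND replicate 3 (SE 0.32, 95% confidence interval -0.37 to 1.13, unadjusted p = 0.27, limma), at 7.0 to 21.01 estimated fragments per sample. CON replicate 2 was its second highest sample. Of 10 markers of the interneurons that carry Htr3a, such as Vip, Reln and Lamp5, 0 passed the cut-off (1.33% of all genes tested), 4 were above 0 and 6 below. For 2 of them, Nr2f2 and Adarb2, all PND samples lay below all CON samples (3.88% of all genes tested). The summed level of the 10 was 56.4 to 66.0 FPKM in PND and 52.1 to 66.1 FPKM in CON. In tissue of mixed cells, fewer cells of a type and less RNA per cell cannot be told apart.

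**Figure D2:**
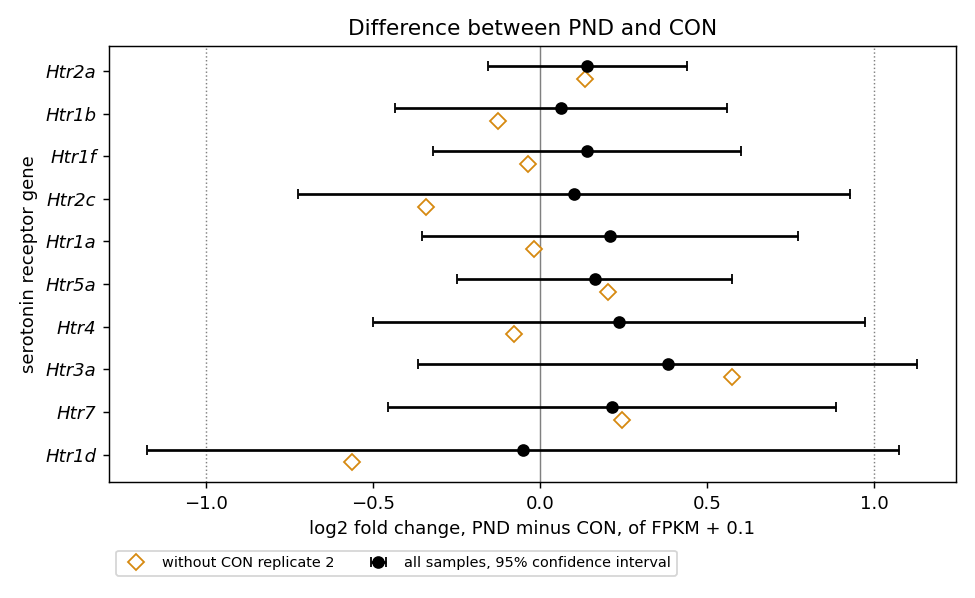
Log2 fold change of each receptor, PND minus CON, on FPKM + 0.1. Black points with bars are all samples with 95% confidence intervals from limma, open diamonds leave out CON replicate 2, and dotted lines mark a fold of 2. All 10 intervals include 0, and 8 lie within a fold of 2 in either direction.

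The intervals set what these samples could show. For 8 receptors the 95% confidence interval lay within a fold of 2 in either direction, narrowest for Htr2a. The intervals of Htr3a and Htr1d reached beyond a fold of 2.

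Added up by coupling, the 5 Gi/o-coupled receptors came to 25.1 ± 1.88 FPKM (SD, n = 3) in PND and 23.4 ± 4.36 FPKM (n = 3) in CON. The Gq/11-coupled pair came to 19.0 ± 2.19 FPKM in PND and 17.7 ± 2.46 FPKM in CON, and the Gs-coupled pair to 2.73 ± 0.074 FPKM in PND and 2.42 ± 0.65 FPKM in CON. All receptors together came to 46.0, 48.4 and 48.6 FPKM in PND and 47.7, 35.7 and 48.8 FPKM in CON. Apart from CON replicate 2 these sums were within a narrow range. The Gi/o-coupled share of the sum was 52.8% ± 4.29 in PND and 52.9% ± 1.32 in CON.

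The order of the levels was compared between neighbours within samples. In 4 of the 9 neighbouring pairs the order was the same in all 6 samples, namely Htr2a over Htr1b, Htr1f over Htr2c, Htr5a over Htr4 and Htr4 over Htr3a. The exact two-sided sign-flip permutation p of such a pair is 0.03125 by construction, the smallest that 6 samples allow, and 0.0703 after Benjamini-Hochberg adjustment over the 9 pairs, so it adds nothing to the count and no pair passed 0.05 after adjustment. The other 5 pairs changed places between samples, so Htr1b cannot be placed above Htr1f, nor Htr2c above Htr1a, nor Htr1a above Htr5a, nor the lowest 3 in any order. Ordered within each group, 6 receptors had the same rank in PND and CON.

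CON replicate 2 stood apart for most of the family. It was the lowest sample for 7 of the 10 receptors, beside 17.1% of all genes tested, and CON replicate 3 was the highest for 3, beside 13.7%. After correction for GC content CON replicate 2 was lowest for 6 receptors, a count added after the data were seen. Markers of striatal projection neurons, which lie beneath the prefrontal cortex and carry Htr1b, Htr2c and Htr4, showed a like pattern. Of 10 such markers, among them Drd1, 7 were lowest in CON replicate 2 and 6 highest in CON replicate 3. Their summed level was 144 FPKM in CON replicate 2, 246 FPKM in CON replicate 1, 359 FPKM in CON replicate 3 and 227 to 274 FPKM in PND. After the GC correction 9 of them were lowest in CON replicate 2. Other marker lists were also at an extreme in this sample, which had the lowest summed level for 5 of the 15 marker lists and the highest for 3. The summed choroid plexus markers were 1.56 FPKM in CON replicate 2 and 2.38 to 3.998 FPKM elsewhere, those of inhibitory neurons 169.5 FPKM against 184 to 213 FPKM, and those of the claustrum, a sheet of neurons beside the striatum, 17.5 FPKM against 18.3 to 27.2 FPKM, highest in CON replicate 3 as for the striatal markers. The low sum of the inhibitory neuron markers did not hold for each of them. Of these 7 markers 3 were lowest in CON replicate 2, while Pvalb (10.3 FPKM) and Sst (52.9 FPKM) were highest in it. Their mean log2 level was 3.51 in CON replicate 2, 3.32 in CON replicate 1, 3.62 in CON replicate 3 and 3.32 to 3.40 in PND. The summed markers of excitatory cortical neurons were highest in CON replicate 2, at 309 FPKM against 188 to 240 FPKM. The part of these cells in the receptor values was not tested.

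Relations between each receptor and the mean log2 level of these markers were computed over the 6 samples after the data were seen. The p-values come from the samples whose pattern prompted the comparison, span both groups and are no independent evidence. For Htr4, Pearson's r was 0.93 and Spearman's rho 1 (exact permutation p = 0.00278 for each, 0.0278 after adjustment over the 10 receptors), and r was 0.84 in the 4 samples left without CON replicates 2 and 3, the 2 farthest from the median marker level. With 4 samples such values were common, since r there was 0.96 for Htr2a, 0.95 for Htr3a, -0.93 for Htr7 and -0.81 for Htr1f. For Htr1b, r was 0.90 and rho 0.89 (exact permutation p = 0.0194 and 0.0333, adjusted 0.0972 and 0.167), and r fell to 0.48 without those samples. The r of 0.81 for Htr1d and of 0.73 for Htr2c (exact permutation, adjusted p = 0.204 and 0.271) rested on the same samples, since without them r was -0.039 and -0.28. The remaining 6 receptors had r between -0.58 and 0.50 with adjusted exact permutation p of at least 0.44. Groups of 3 were too small for a relation within a group, and whether the tissue taken set these levels was not tested.

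**Figure D3:**
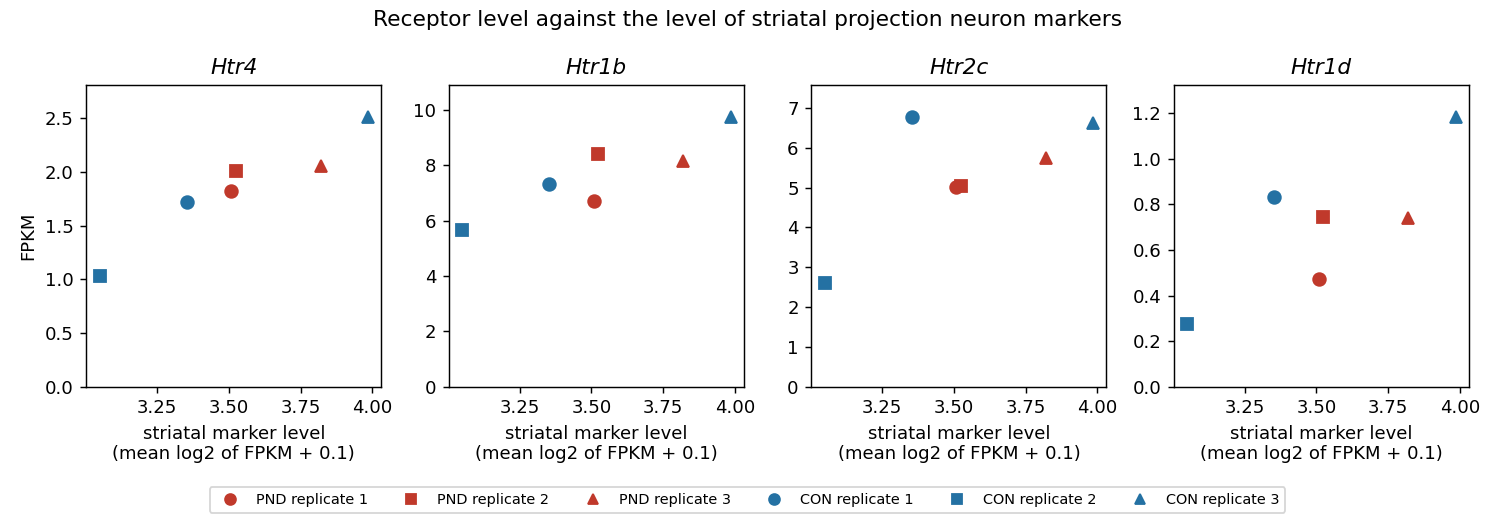
FPKM of Htr4, Htr1b, Htr2c and Htr1d (vertical axes, from 0) against the mean log2(FPKM + 0.1) of 10 striatal projection neuron markers in each sample, PND in red and CON in blue. CON replicate 2 is lowest on both axes in every panel, and Htr4 follows the marker level through all 6 samples.

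No change was detected in the rest of the serotonin pathway either. Of 56 other listed genes, 54 had an identifier and 50 passed the filter on low values. The cut-off was passed by 0 of these 50 (1.33% of all genes tested), and 0 had an unadjusted p below 0.05 by limma (3.13% of all genes tested) or by voom (526 of 18068 genes). The log2 differences ran from -0.36 to 0.68, with 26 genes above 0, 24 below and a median of 0.0048.

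Of the other receptors, Htr5b measured 0.526, 0.131 and 0.110 FPKM in PND and 0, 0.254 and 0.287 FPKM in CON. Htr2b and Htr6 were below the filter, at 0 to 0.194 FPKM and 0 to 0.223 FPKM. Their groups overlapped, with an exact permutation p of 0.70 for each, where the smallest possible p was 0.10. Htr3b had no identifier here.

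The serotonin neurons of the raphe, which carry Tph2, reach the cortex with their axons but not their cell bodies. The rate-limiting enzymes of synthesis were at the limit of detection, with Tph2 between 0 and 0.238 FPKM and Tph1 between 0 and 0.0677 FPKM (exact permutation p = 1 and 0.40). The transporter Slc6a4 had no identifier here. Ddc, the decarboxylase that completes the synthesis of serotonin and of dopamine, had the smallest p of the pathway. It measured 1.86, 0.897 and 1.49 FPKM in PND and 0.922, 0.917 and 0.623 FPKM in CON, a log2 difference of 0.68 (SE 0.32, unadjusted p = 0.070, limma), with PND replicate 2 among the CON samples. The enzymes that break serotonin down had levels near that of Htr2a. Maoa measured 13.4, 11.7 and 10.3 FPKM in PND and 12.3, 9.51 and 10.9 FPKM in CON (log2 difference 0.11), and Maob 9.55 to 10.5 FPKM in PND and 9.99 to 11.7 FPKM in CON (-0.078). Of the carriers, the vesicular transporter Slc18a2 (-0.36), Slc29a4 (0.35) and Slc22a3 (0.43) were below 1 FPKM in every sample, and their groups overlapped.

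Of 18 receptor partners and regulators, 11 were above 0 and 7 below. The smallest p was that of Rps6ka3, a kinase that dampens Htr2a signalling, at 10.2, 9.13 and 6.61 FPKM in PND and 7.01, 5.58 and 7.39 FPKM in CON (log2 difference 0.36, SE 0.20, unadjusted p = 0.113, limma). Mpdz, a scaffold protein that binds Htr2c, was the 1 of 50 pathway genes whose groups did not overlap (PND below in 3.88% and above in 3.78% of all genes tested), at 8.25, 8.24 and 8.39 FPKM in PND and 9.10, 10.03 and 9.38 FPKM in CON. It was named after its values were seen, and its log2 difference of -0.19 (SE 0.11) had an unadjusted p of 0.13 (limma).

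The G proteins and effectors downstream showed no difference past the cut-off. Of the 8 Gi/o and GIRK channel genes 4 were above 0 and 4 below, with the smallest p for Gnai2 (log2 difference 0.22, unadjusted p = 0.353, limma). Of the 7 Gq/11 and phospholipase C genes 1 was above 0 and 6 below, led by Plcb4 (-0.12, unadjusted p = 0.336). Of the 10 Gs/olf and adenylyl cyclase genes 5 were above 0 and 5 below, led by Gnas (-0.23, unadjusted p = 0.287).

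**Figure D4:**
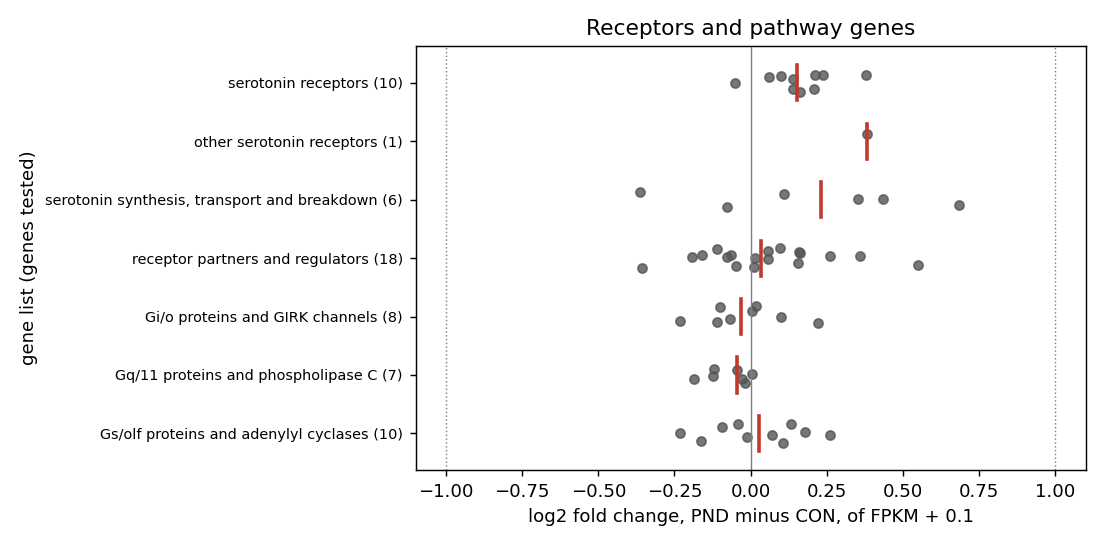
Log2 fold change, PND minus CON, on FPKM + 0.1, for the 10 receptors and the 50 tested pathway genes by list. Each point is a gene, the red bar is the median of its list and the dotted lines mark a fold of 2. All points lie between -0.36 and 0.68, inside the dotted lines.

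The samples as a whole carried the marks of cortex. Slc17a7, the vesicular glutamate transporter of cortical pyramidal neurons, was at 23.6 to 73.8 FPKM. Estimated depth was 7210759 to 9387435 fragments per sample, and no pair of samples held identical values. Of 7 inhibitory neuron markers 5 were above 0 and 2 below (median log2 difference 0.13). Of these 1, Dlx1, passed the cut-off (1.33% of all genes tested), lower in PND with a log2 difference of -1.87 (unadjusted p = 0.00517, adjusted p = 0.9999, limma). Dlx1 was low, at 0.149, 0.262 and 0.121 FPKM in PND and 1.79, 0.521 and 0.734 FPKM in CON.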

How the data were processed

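The 6 deposited files held FPKM for 21006 Ensembl genes. According to the methods, the authors removed ribosomal RNA, filtered reads with Seqtk, aligned them with HISAT2, counted fragments with StringTie, scaled them by TMM and computed these FPKM. The submitters' processing notes name Bowtie 0.12.2, mm8 and mm9 without a role, and the build used for these files and the use of strand are not given in the sources used here. Symbols matched 20866 identifiers, and coordinates are those of GENCODE M21 on GRCm38.

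The groups were compared in limma 3.58.1 (R 4.3.3, lmFit and eBayes with trend, two-sided) on log2(FPKM + 0.1) over the 18185 genes averaging 0.1 FPKM or more. Fold changes are on that scale, which understates changes of low genes. Adjusted p-values are Benjamini-Hochberg over all genes. Genes below the filter and relations between measures had exact permutation tests. Depth was not given, so fragments were estimated from the steps of low values and exon length. Of values estimated at 0.5 to 20.5 fragments, 41.6% to 44.8% came within 0.05 of whole numbers (10% if there were no steps), so fragment numbers are approximate. The fit was tested on simulated data.

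The receptors and gene lists were chosen with earlier results of these data known. Pathway genes named were all other receptors and all genes of synthesis, transport and breakdown, and in the remaining lists those past the cut-off or else the smallest p. Marker genes were named where they bear on a receptor. Promoters in the RefSeq table matched 8 of the 10 receptors.

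Alternatives were the pseudocount, the filter, quantile normalization, median centring, no trend, a replicate block, GC correction (loess), voom on fragments, and leaving out each sample.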

Additional observations from a re-analysis of the deposited data

How the results depend on the processing

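Under the 11 other settings, none of the 107 fits of a receptor changed direction or reached an unadjusted p below 0.05 (smallest 0.168, limma). With 1 sample left out, 8 of 60 fits changed direction and none reached an unadjusted p below 0.05. Without CON replicate 2 the log2 differences turned to -0.018 for Htr1a, -0.13 for Htr1b, -0.037 for Htr1f, -0.34 for Htr2c and -0.080 for Htr4. That of Htr1d turned to 0.14 without PND replicate 1, 0.091 without CON replicate 1 and 0.32 without CON replicate 3. The ranges with 1 sample left out were -0.018 to 0.33 for Htr1a, -0.13 to 0.26 for Htr1b, -0.037 to 0.29 for Htr1f, -0.34 to 0.33 for Htr2c, -0.080 to 0.52 for Htr4, -0.56 to 0.32 for Htr1d, 0.037 to 0.20 for Htr2a, 0.063 to 0.27 for Htr5a, 0.20 to 0.57 for Htr3a and 0.019 to 0.38 for Htr7. The cause was not tested. The number of receptors and of pathway genes past the cut-off was 0 in every setting. An unadjusted p below 0.05 was reached by Rps6ka3 with GC correction (log2 difference 0.41) and without PND replicate 3 (0.54), by Ddc without PND replicate 2 (0.96), by Gnaz without CON replicate 1 (-0.51) and by Arrb1 without CON replicate 3 (0.99), with adjusted values by limma of at least 0.97.

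Same-numbered samples did not deviate together (correlations -0.0487, -0.451 and 0.0274 over 12387 genes), so the numbers were not taken as pairs. With the replicate block 0 receptors and 226 of all genes passed the cut-off, against 241 without it, and 1 of the 6 samples correlated best with its own number. Over all genes the cut-off was passed by 25 when 1 was the pseudocount, 59 when genes averaging under 1 FPKM were dropped and 388 without CON replicate 2. The fewest fragments, 7.0 to 27.3 per sample, stood behind Htr1d, Htr3a and Htr7.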
